A study of Mus musculus with 2 samples.

Results

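The immediate early transcription factors described here are 10 genes, Fos, Fosb, Jun, Junb, Jund, Egr1, Atf3, Klf2, Nr4a1 and Ier2, taken by symbol out of the 32285 gene IDs counted in each library. They were measured by single-cell 3′ RNA sequencing of mouse spleen cells that were viably frozen as suspensions and sorted by flow cytometry for CD45.2, an allelic form of the leukocyte antigen CD45, and for CD11b, the integrin subunit encoded by Itgam. One set of cells came from a high-B12 and the other from a low-B12 treatment, each as 1 library. B12 is a vitamin that methionine synthase needs. The series title names Tet2-deficient haematopoiesis, but neither library has a genotype, strain, age, B12 dose, duration or number of mice in its labels. With 1 library per treatment no test between treatments was possible, and the treatment cannot be told apart from any other difference between the libraries. All intervals given are 95% intervals of counting error only.

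Immediate early genes are transcribed within minutes of a stimulus by factors already present in the cell, chiefly SRF with its ELK partners and CREB, which kinase cascades activate. FOS and JUN proteins pair through leucine zippers into the AP-1 dimer, EGR1 and KLF2 are zinc finger factors, NR4A1 is an orphan nuclear receptor and ATF3 is a stress-induced bZIP factor. In leukocytes these genes are known to respond to antigen receptor, Toll-like receptor and cytokine signals, and also to tissue dissociation and cell sorting.

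RefSeq promoter windows in GRCm38.p6, from 250 bases before to 50 after the annotated start, were found for 8 of the 10 genes, with Egr1 and Ier2 not matched. The 5 windows shown are those of Fos (chr12:85473640-85473939, plus strand), the most abundant FOS gene, of Fosb (chr7:19309996-19310295, minus strand) and Nr4a1 (chr15:101266596-101266895, plus strand), which were lower under high B12 in every cell class before scaling, of Atf3 (chr1:191183284-191183583, minus strand), whose direction differed between classes, and of Jun (chr4:95052173-95052472, minus strand), which was higher in every class. Capitals mark TGACG on either strand, the core of the cAMP response element that CREB and ATF proteins bind.
Fos: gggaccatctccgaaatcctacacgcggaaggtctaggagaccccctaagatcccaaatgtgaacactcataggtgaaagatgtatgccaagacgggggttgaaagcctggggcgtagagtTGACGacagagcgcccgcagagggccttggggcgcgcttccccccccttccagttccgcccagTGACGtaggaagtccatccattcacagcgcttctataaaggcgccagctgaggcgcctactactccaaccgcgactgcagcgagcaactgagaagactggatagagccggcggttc
Fosb: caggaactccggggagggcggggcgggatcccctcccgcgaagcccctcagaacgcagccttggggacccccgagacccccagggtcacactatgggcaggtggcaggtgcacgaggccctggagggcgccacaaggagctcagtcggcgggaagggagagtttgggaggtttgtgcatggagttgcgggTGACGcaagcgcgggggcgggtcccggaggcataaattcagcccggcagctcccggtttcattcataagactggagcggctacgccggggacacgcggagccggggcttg
Nr4a1: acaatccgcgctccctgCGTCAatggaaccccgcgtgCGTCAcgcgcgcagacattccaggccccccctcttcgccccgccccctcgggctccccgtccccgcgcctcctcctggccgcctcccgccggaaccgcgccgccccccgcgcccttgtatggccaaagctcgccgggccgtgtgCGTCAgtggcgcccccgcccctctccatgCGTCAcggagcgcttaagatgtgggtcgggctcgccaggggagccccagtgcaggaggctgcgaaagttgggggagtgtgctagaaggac
Atf3: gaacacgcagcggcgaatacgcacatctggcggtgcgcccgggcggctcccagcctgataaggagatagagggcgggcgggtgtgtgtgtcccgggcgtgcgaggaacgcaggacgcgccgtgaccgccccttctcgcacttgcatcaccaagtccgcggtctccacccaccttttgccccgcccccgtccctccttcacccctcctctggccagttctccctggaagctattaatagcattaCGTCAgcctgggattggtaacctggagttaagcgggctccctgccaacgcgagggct
Jun: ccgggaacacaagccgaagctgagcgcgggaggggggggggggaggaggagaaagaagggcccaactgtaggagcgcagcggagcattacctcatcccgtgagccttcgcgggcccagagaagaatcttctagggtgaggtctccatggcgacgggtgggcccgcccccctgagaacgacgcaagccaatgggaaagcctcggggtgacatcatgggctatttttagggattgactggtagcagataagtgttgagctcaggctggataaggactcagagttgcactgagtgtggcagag
The core TGACG was present in 6 of the 8 windows, those of Fos, Fosb, Junb, Atf3, Klf2 and Nr4a1, against 20.8% of 32851 windows of all genes in the table. Nr4a1 had 4 matches and Fos had 2, while Jun and Jund had none. The motif GCGNGGGCG, read by EGR1, was in the windows of Fosb, Klf2 and Nr4a1, 3 of 8 against 5.55% of all windows. The letters TATAAA on the given strand were in 2 of 8, those of Fos and Junb, against 8.32%. They began at position -33 from the annotated start in Fos, but at position 1 in Junb. The full element TGACGTCA, which holds the core on both strands, was in none of the 8 and in 1.79% of all windows. None held the AP-1 motif TGANTCA, against 7.81%, or the CArG box of SRF, against 1.63%. Sites more than 250 bases before the start were not searched, and Egr1 and Ier2 had no window. TGANTCA does not match TGACATCA, which the Jun window holds with an extra letter. So the matches do not show whether these genes lack AP-1 or SRF sites. All motifs but TATAAA were searched on both strands. The windows were not matched on base composition, which was 72.3% G and C for Nr4a1 against a median of 52.7%.

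In all barcodes there were 46994991 UMIs under high B12 and 48884220 UMIs under low B12 (unique molecular identifiers, each counting 1 captured RNA molecule), and 6748 cells under high B12 and 6510 cells under low B12 passed the filters. Cells were placed in a class by the first rule they met. Neutrophils, with at least 5% of their UMIs from S100a8 and S100a9, numbered 2672 under high B12 and 942 under low B12. B cells, with at least 3 UMIs of Cd79a and Cd79b, numbered 673 under high B12 and 1853 under low B12. NK cells, with at least 2 UMIs of Ncr1 and Klrb1c, numbered 844 under high B12 and 946 under low B12. The conventional dendritic cell (cDC) class, with at least 3 UMIs of Cd209a, Clec10a and Flt3, held 403 cells under high B12 and 479 cells under low B12, and the monocyte class, with at least 2 UMIs of Csf1r, 842 under high B12 and 1264 under low B12. In the neutrophil, B, NK and monocyte classes, 10 of 10, 8 of 8, 8 of 8 and 7 of 8 markers of the class stood at least 2-fold above the other classes together. The cDC class had only 5 of 8, and 28.8% of its cells under high B12 and 35.1% under low B12 also met the monocyte rule. Its 8 markers summed to 682 CPM under high B12 and 695 CPM under low B12. In B cells, where 1 was at 0 under high B12, they summed to 680 CPM and 913 CPM in that order. The 8 monocyte markers summed to 1020 CPM and 1027 CPM in the cDC class and to 3230 CPM and 3228 CPM in monocytes. The name of the cDC class is therefore held less firmly. The libraries shared 4 cell barcodes. Levels are given in CPM, the UMIs of a gene summed over the cells of a class, scaled to 1000000 UMIs of that class, and ratios are high B12 over low B12.

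Fos, which encodes the founding FOS partner of AP-1, was by CPM most abundant in monocytes and least abundant in B cells. Its libraries differed by at most 1.14-fold in any class. In monocytes it stood at 3196 CPM under high B12 and 2832 CPM under low B12 (ratio 1.13, 1.11 to 1.15). In neutrophils the order of the libraries was the opposite, at 1985 CPM under high B12 and 2267 CPM under low B12 (ratio 0.876, 0.858 to 0.893). In cDCs it stood at 1862 CPM under high B12 and 1993 CPM under low B12, and in NK cells at 1619.9 CPM under high B12 and 1735 CPM under low B12. B cells had 1406 CPM under high B12 and 1294 CPM under low B12 (ratio 1.09, 1.06 to 1.117). Neutrophils and cDCs were the only neighbours in this order of levels that overlapped. Scaling by the median gene turned the log2 ratio to 0.025 in neutrophils and 0.0070 in NK cells. In cells thinned to 500 UMIs a Fos UMI was found in 66.7% of monocytes under high B12 and 60.7% under low B12, and without thinning in 94.3% under high B12 and 91.5% under low B12. In B cells the thinned shares were 41.9% under high B12 and 38.0% under low B12, and the unthinned ones 83.8% under high B12 and 82.8% under low B12. Neutrophils had thinned shares of 62.2% under high B12 and 68.2% under low B12, below monocytes under high B12 and above them under low B12. Empty droplets of 1 to 50 UMIs held Fos at 1816 CPM under high B12 and 1564 CPM under low B12, so the share of cells with a UMI does not count the cells that transcribe the gene.

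**Figure D1:**
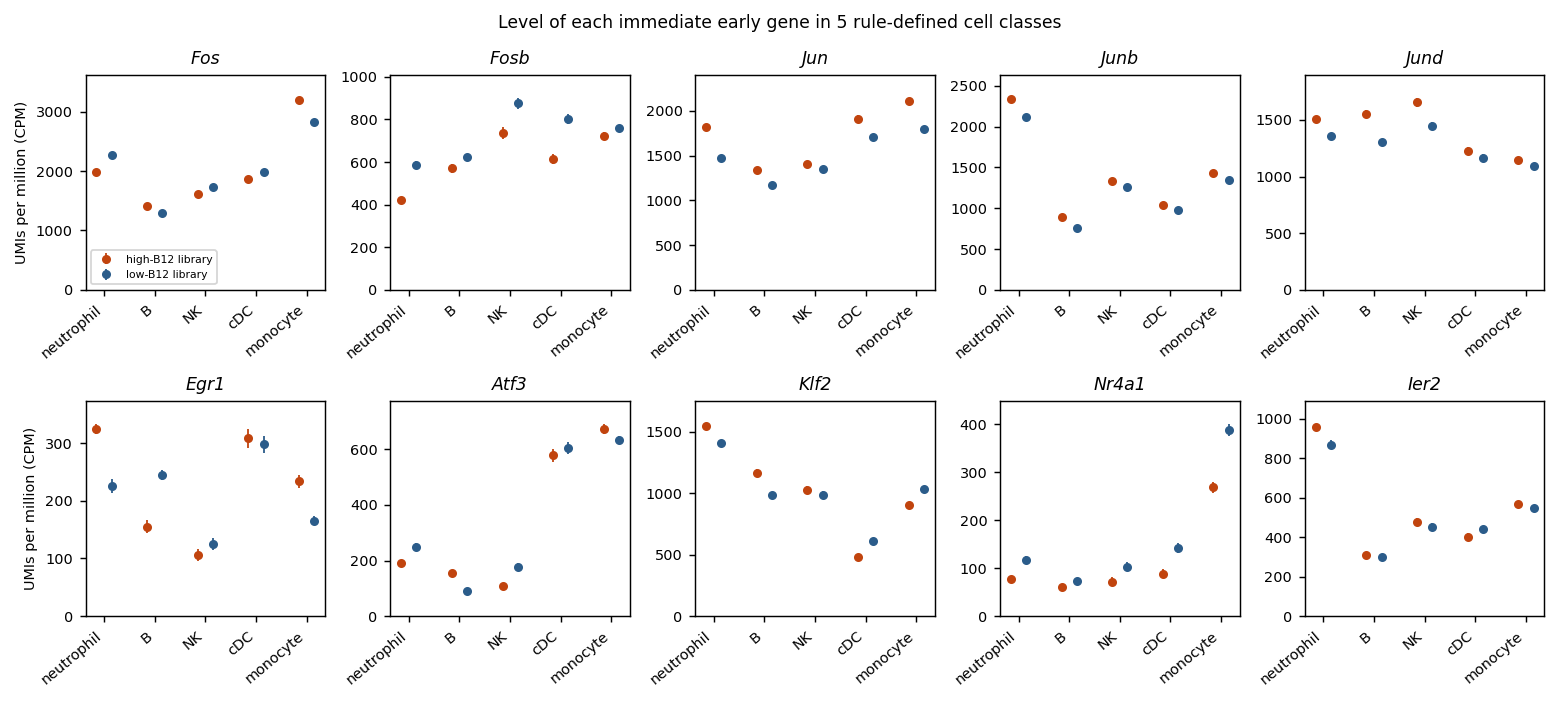
CPM of each gene in the 5 cell classes, with the high-B12 library in red left of the low-B12 library in blue, bars for the exact 95% Poisson interval and vertical axes starting at 0. Junb, Klf2 and Ier2 peak in neutrophils and Fos, Atf3 and Nr4a1 in monocytes, and for most genes the classes differ more than the libraries.

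Fosb, whose product also pairs with JUN proteins, was lower under high B12 in all 5 classes, though by little in B cells and monocytes, and in 41 of 45 values under other settings. In neutrophils it stood at 423 CPM under high B12 and 585 CPM under low B12 (ratio 0.723, 0.694 to 0.753), and in cDCs at 615 CPM under high B12 and 801 CPM under low B12 (ratio 0.768, 0.731 to 0.806). NK cells, which had the highest mean level, held 736 CPM under high B12 and 875 CPM under low B12 (ratio 0.841, 0.802 to 0.882). The gap was narrower in B cells, at 570.5 CPM under high B12 and 624 CPM under low B12 (ratio 0.915, 0.876 to 0.954), and in monocytes, at 723 CPM under high B12 and 759 CPM under low B12 (ratio 0.953, 0.920 to 0.987). No class was separated from its neighbour in level by both libraries. Scaling by the median gene turned the monocyte log2 ratio to 0.0043, and the other 4 classes kept their direction. In empty droplets Fosb was lower as well, at 494 CPM under high B12 and 616 CPM under low B12 (ratio 0.802, 0.752 to 0.855), and the part of free RNA in the class values was not tested.

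The JUN genes were higher under high B12 in every class, by small factors, though under 9 other settings Junb was lower in 4 and Jund in 2 of 45 values. Jun, whose product forms AP-1 with FOS, stood at 1820.2 CPM under high B12 and 1469 CPM under low B12 in neutrophils (ratio 1.24, 1.21 to 1.27). Monocytes, which had the highest mean level, held 2114 CPM under high B12 and 1801 CPM under low B12 (ratio 1.17, 1.15 to 1.20). In B cells, the lowest class, Jun stood at 1344 CPM under high B12 and 1172 CPM under low B12 (ratio 1.15, 1.11 to 1.18). The gap was smaller in cDCs, at 1907 CPM under high B12 and 1709.9 CPM under low B12 (ratio 1.115, 1.08 to 1.15), and in NK cells, at 1407 CPM under high B12 and 1353 CPM under low B12 (ratio 1.04, 1.00 to 1.08). Monocytes, cDCs and neutrophils overlapped from each to its neighbour, and all 3 lay above NK cells, which lay above B cells. Jun was higher in all 45 values that 9 other settings gave for the 5 classes. In empty droplets the difference was larger than in any class, at 1639.7 CPM under high B12 and 1101 CPM under low B12 (ratio 1.49, 1.43 to 1.55), and its part in the class values was not tested.

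Junb, whose product can act as an antagonist of JUN within AP-1, was led by neutrophils, at 2333 CPM under high B12 and 2119 CPM under low B12 (ratio 1.10, 1.08 to 1.123). Monocytes followed at 1430.5 CPM under high B12 and 1347 CPM under low B12 and NK cells at 1339 CPM under high B12 and 1259 CPM under low B12. Below them lay cDCs at 1041 CPM under high B12 and 981 CPM under low B12 and B cells at 895 CPM under high B12 and 761 CPM under low B12 (ratio 1.18, 1.14 to 1.22). Every class lay above the next in both libraries. The neutrophil log2 ratio of 0.14 was -0.016 in thinned cells, -0.027 with every cell weighted alike and -0.033 in barcodes that met 1 class rule only. In empty droplets Junb stood at 2152 CPM under high B12 and 1572 CPM under low B12. That ratio, 1.37 (1.32 to 1.42), was larger than in any class, and its part in the class values was not tested. Jund, the JUN gene known for steady expression in resting cells, had the narrowest range over classes, 1.38-fold. It was highest in NK cells, at 1657 CPM under high B12 and 1445 CPM under low B12 (ratio 1.15, 1.11 to 1.19), and lowest in monocytes, at 1148 CPM under high B12 and 1094 CPM under low B12 (ratio 1.05, 1.02 to 1.08). Neutrophils held 1505 CPM under high B12 and 1354 CPM under low B12 and B cells 1549 CPM under high B12 and 1305 CPM under low B12 (ratio 1.19, 1.16 to 1.22), and these overlapped each other and NK cells. Empty droplets held Jund at 1587 CPM under high B12 and 1538 CPM under low B12 (ratio 1.03, 0.994 to 1.07).

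Egr1, which encodes a zinc finger factor induced by ERK signalling, differed in opposite directions between classes. In neutrophils it stood at 325 CPM under high B12 and 226 CPM under low B12 (ratio 1.43, 1.35 to 1.52), and in monocytes at 234 CPM under high B12 and 166 CPM under low B12 (ratio 1.41, 1.32 to 1.51). In B cells it was 1.57-fold lower under high B12, at 155 CPM under high B12 and 245 CPM under low B12 (ratio 0.636, 0.587 to 0.687). NK cells had the lowest level, 106 CPM under high B12 and 125 CPM under low B12 (ratio 0.850, 0.749 to 0.964), below all other classes in both libraries. In cDCs, at 308 CPM under high B12 and 298 CPM under low B12 (ratio 1.04, 0.962 to 1.11), the libraries lay within counting error. The classes above NK cells overlapped from each to its neighbour. Empty droplets held Egr1 at 191 CPM under high B12 and 154 CPM under low B12, above the NK cell level in both libraries. The part of free RNA in the class values was not tested. Under the 9 other settings the log2 ratio lay between 0.42 and 0.74 in neutrophils, between 0.47 and 0.95 in monocytes and between -0.88 and -0.38 in B cells. In cells thinned to 500 UMIs an Egr1 UMI was found in 10.6% of monocytes under high B12 and 5.85% under low B12, with exact binomial intervals of 8.57 to 12.8% and 4.62 to 7.29%, and without thinning in 51.0% under high B12 and 40.8% under low B12. In B cells the thinned shares were 8.47% under high B12 and 10.5% under low B12, with overlapping intervals of 6.48 to 10.8% and 9.16 to 12.01%, and the unthinned ones 38.8% under high B12 and 50.1% under low B12. Beside the B cell values, the 5 erythroid markers, none of them at 0, summed to 63.9 CPM under high B12 and 236 CPM under low B12 in that class, and their part was not tested.

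Atf3, whose product is known as a brake on Toll-like receptor responses in macrophages, was abundant in monocytes and cDCs and scarce in lymphocytes. Monocytes held 672 CPM under high B12 and 634 CPM under low B12 (ratio 1.06, 1.02 to 1.10). In cDCs it stood at 578 CPM under high B12 and 604 CPM under low B12 (ratio 0.957, 0.908 to 1.01), and in neutrophils at 192 CPM under high B12 and 251 CPM under low B12 (ratio 0.765, 0.720 to 0.814). The lymphocyte classes differed in opposite directions. In B cells Atf3 was higher under high B12, with 154 CPM under high B12 and 91.8 CPM under low B12 (ratio 1.68, 1.53 to 1.84). In NK cells it was 1.67-fold lower, with 107 CPM under high B12 and 179 CPM under low B12 (ratio 0.598, 0.532 to 0.672). B cells and NK cells were the only neighbours whose levels overlapped. Empty droplets held Atf3 at 314 CPM under high B12 and 295 CPM under low B12, above neutrophils, B cells and NK cells. The part of free RNA in these class values was not tested. The tenth of B cells richest in Atf3 held 80.3% of its UMIs under high B12 and 89.5% under low B12. In thinned B cells an Atf3 UMI was found in 4.31% under high B12 and 2.91% under low B12. The exact binomial intervals overlapped, at 2.90 to 6.13% under high B12 and 2.20 to 3.79% under low B12. Without thinning the shares were 22.9% under high B12 and 16.5% under low B12. The B cell log2 ratio of 0.75 was 1.44 without called doublets and 1.16 in barcodes that met 1 class rule only, and the NK cell log2 ratio lay between -0.88 and -0.55 under the other settings. In NK cells the 7 T cell markers, 1 of them at 0 in each library, summed to 240.5 CPM under high B12 and 153 CPM under low B12, and their part was not tested.

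**Figure D2:**
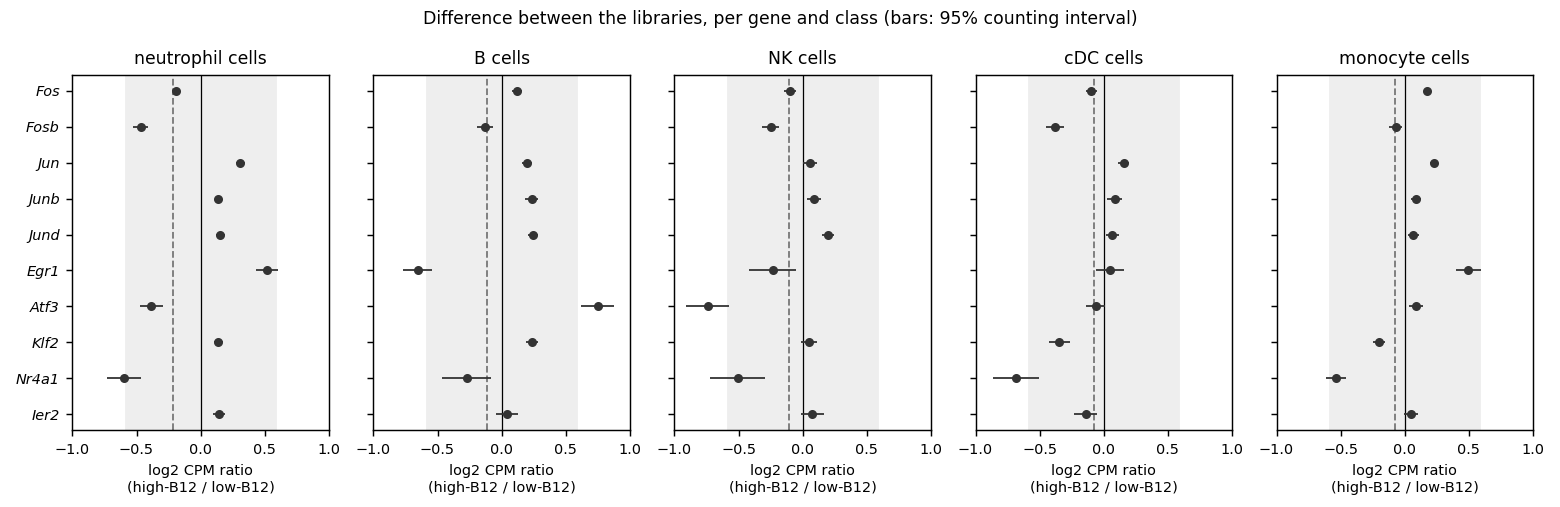
log2 of the CPM ratio, high B12 over low B12, for each gene in each class, with bars for the exact 95% counting interval, a solid line at 0, a dashed line at the median of all measured genes and a grey band up to 1.5-fold. Most points lie within the band, and Egr1 in B cells, Atf3 in B and NK cells and Nr4a1 in neutrophils and cDCs lie outside it.

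Nr4a1, which encodes the orphan receptor NUR77, was lower under high B12 in all 5 classes, also when scaled by the median gene, and in 42 of 45 values under all other settings. It stood far above the other classes in monocytes. Monocytes held 269 CPM under high B12 and 389 CPM under low B12 (ratio 0.691, 0.655 to 0.730). In cDCs it stood at 88.3 CPM under high B12 and 142 CPM under low B12 (ratio 0.624, 0.550 to 0.706), and in neutrophils at 76.9 CPM under high B12 and 116 CPM under low B12 (ratio 0.661, 0.603 to 0.726). NK cells held 72.1 CPM under high B12 and 103 CPM under low B12 (ratio 0.704, 0.607 to 0.815) and B cells 60.3 CPM under high B12 and 72.7 CPM under low B12 (ratio 0.830, 0.726 to 0.945). Below monocytes each class overlapped its neighbour. In neutrophils the size rested on the choice and the weight of cells. The log2 ratio of -0.60 was -0.23 in thinned cells and -0.24 with every cell weighted alike, which keep every barcode. It was -0.17 without the deepest cells, -0.23 without called doublets and -0.21 in barcodes that met 1 class rule only. Another rule was also met by 7.90% of neutrophils under high B12 and 14.1% under low B12, and the 4 granulocyte progenitor markers, none of them at 0, summed to 238 CPM under high B12 and 496 CPM under low B12. In NK cells the log2 ratio of -0.51 was -0.25 without called doublets and -0.23 in barcodes that met 1 class rule only. In thinned cells the log2 ratio was -0.23 in place of -0.53 in monocytes and -0.38 in place of -0.68 in cDCs. In B cells it was 0.23 in place of -0.27. Thinned Nr4a1 was sparse, and the shares of cells with a UMI had overlapping intervals. In B cells these were 1.36 to 3.83% under high B12 and 1.59 to 2.99% under low B12. In cDCs they were 2.29 to 6.37% under high B12 and 3.41 to 7.61% under low B12. Empty droplets had 162 CPM under high B12 and 204 CPM under low B12 of Nr4a1 (ratio 0.795, 0.710 to 0.888), above the level in every class but monocytes.

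Within the monocyte class Nr4a1, which Ly6C-low nonclassical monocytes of mice are known to require, followed the subset. Cells with at least 2 UMIs of the nonclassical markers Ace, Cd300e, Treml4 and Adgre4 and none of the classical markers Ly6c2 and Ccr2 held 537 CPM under high B12 and 647 CPM under low B12 (ratio 0.831, 0.732 to 0.940). Cells with the converse pattern, called classical here, held 173 CPM under high B12 and 177 CPM under low B12 (ratio 0.980, 0.835 to 1.15), where the libraries lay within counting error. The remaining monocytes held 268 CPM under high B12 and 383 CPM under low B12 (ratio 0.698, 0.653 to 0.746). Nonclassical cells made up 12.9% of the monocytes under high B12 and 26.5% under low B12, or 109 cells under high B12 and 335 cells under low B12, and classical cells 20.4% under high B12 and 16.4% under low B12. The ratio of 0.691 over all monocytes thus stood beside a different mix of subsets, whose part in it was not tested. Egr1 had the opposite order of subsets, with 262 CPM under high B12 and 231 CPM under low B12 in classical cells (ratio 1.14, 0.993 to 1.30). In nonclassical cells Egr1 stood at 177 CPM under high B12 and 100.5 CPM under low B12 (ratio 1.77, 1.38 to 2.26). Summed over the 10 genes, classical cells held 11806 CPM under high B12 and 10885 CPM under low B12, and nonclassical cells 9547 CPM under high B12 and 8331 CPM under low B12. The split was chosen after the values of the whole class were seen. Nonclassical cells were shallower, with medians of 4837 UMIs under high B12 and 4816 UMIs under low B12, than classical cells, with 9763 UMIs under high B12 and 9275 UMIs under low B12.

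**Figure D3:**
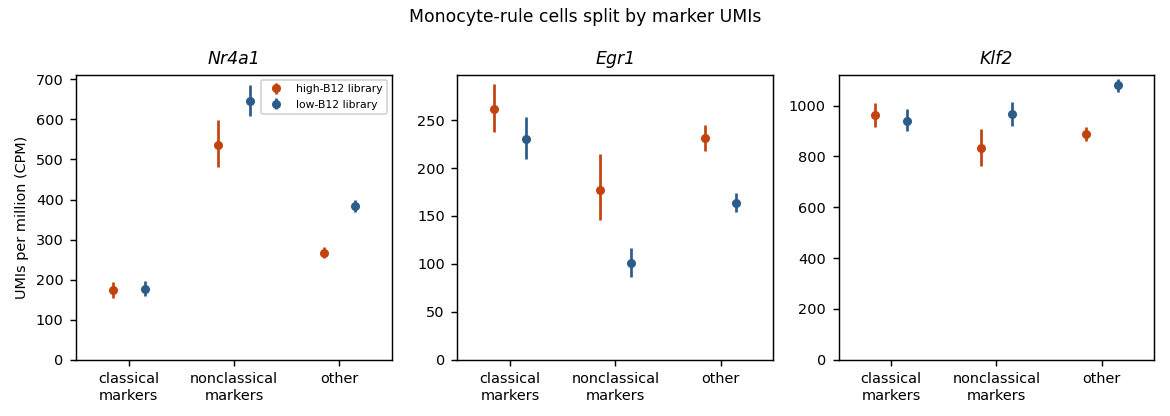
CPM of Nr4a1, Egr1 and Klf2 in monocytes with classical markers only, nonclassical markers only and all others, with the high-B12 library in red left of the low-B12 library in blue and bars for the exact 95% Poisson interval. Nr4a1 is highest in nonclassical cells of both libraries and stands at 173 CPM under high B12 and 177 CPM under low B12 in classical cells.

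Klf2, which encodes a factor of lymphocyte quiescence and trafficking, was led by neutrophils and lowest in cDCs. Neutrophils held 1544 CPM under high B12 and 1404 CPM under low B12 (ratio 1.10, 1.07 to 1.13). In B cells it was higher under high B12 too, at 1164 CPM under high B12 and 987 CPM under low B12 (ratio 1.18, 1.14 to 1.22), and in NK cells the libraries lay within counting error, at 1024 CPM under high B12 and 989 CPM under low B12 (ratio 1.04, 0.993 to 1.08). In monocytes Klf2 was lower under high B12, at 900.4 CPM under high B12 and 1034 CPM under low B12 (ratio 0.871, 0.845 to 0.898), and in cDCs too, at 481 CPM under high B12 and 610.4 CPM under low B12 (ratio 0.787, 0.745 to 0.832). B cells, NK cells and monocytes overlapped in level. Empty droplets held Klf2 at 1337 CPM under high B12 and 1262 CPM under low B12, above every class but neutrophils. The part of free RNA was not tested.

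Ier2, an immediate early gene whose product acts in the nucleus, had a 2.996-fold range over classes, the widest after Atf3 and Nr4a1. It was highest in neutrophils, at 959.9 CPM under high B12 and 869 CPM under low B12 (ratio 1.10, 1.07 to 1.14), and lowest in B cells, at 309.5 CPM under high B12 and 301 CPM under low B12 (ratio 1.03, 0.969 to 1.09). Monocytes held 568 CPM under high B12 and 549 CPM under low B12, NK cells 476 CPM under high B12 and 452 CPM under low B12 and cDCs 399.96 CPM under high B12 and 441 CPM under low B12 (ratio 0.907, 0.852 to 0.966). Every class lay above the next in both libraries. Empty droplets held Ier2 at 928 CPM under high B12 and 812 CPM under low B12, above every class but neutrophils. The part of free RNA was not tested.

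Within each of the 5 classes the summed level of the 10 genes differed by at most 1.11-fold between the libraries, and over all cells, whose mix of classes differed, by more, at 10624 CPM under high B12 and 8939 CPM under low B12 (ratio 1.19, 1.18 to 1.19). In neutrophils they summed to 11164 CPM under high B12 and 10661 CPM under low B12 (ratio 1.05, 1.04 to 1.06), and in monocytes to 11255 CPM under high B12 and 10604 CPM under low B12 (ratio 1.06, 1.05 to 1.07). The sum was 7608 CPM under high B12 and 6853 CPM under low B12 in B cells (ratio 1.11, 1.10 to 1.124) and 8544 CPM under high B12 and 8514 CPM under low B12 in NK cells (ratio 1.00, 0.989 to 1.02). In cDCs it was 8504 CPM under high B12 and 8747 CPM under low B12 (ratio 0.972, 0.959 to 0.986). By these sums monocytes overlapped with neutrophils and cDCs with NK cells, and B cells were lowest in both libraries. The median neutrophil held 15809 CPM under high B12 and 16164 CPM under low B12. The median monocyte held less in both libraries, 11070 CPM under high B12 and 9820 CPM under low B12. The neutrophil log2 ratio of 0.067 was -0.026 in barcodes that met 1 class rule only, -0.0028 in thinned cells and 0.28 when scaled by the median gene, and the cDC log2 ratio of -0.041 was 0.035 when scaled by the median gene.

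All 10 genes had at least 50 UMIs in every class, the minimum for a gene to count as measured, and few of the 50 values passed a 1.5-fold difference. In neutrophils 1 gene was lower, Nr4a1, and none was higher, against 16.3% lower and 1.79% higher of 9896 measured genes. In B cells 1 was lower, Egr1, and 1 higher, Atf3, against 8.44% and 2.99% of 10883 genes. In NK cells 1 was lower, Atf3, against 7.38%, and none higher, against 2.13%. In cDCs 1 was lower, Nr4a1, against 5.86%, and none higher, against 2.22%. In monocytes none was lower or higher, against 5.05% and 2.72%. So 4 values were lower, and these were 1 in thinned cells and 2 without called doublets, while the 1 higher value was 3 in thinned cells. The median log2 ratio of the 10 genes was 0.14 in neutrophils, 0.16 in B cells, -0.024 in NK cells, -0.081 in cDCs and 0.077 in monocytes. Over all measured genes it was -0.22, -0.12, -0.11, -0.076 and -0.073 in the same order of classes, and scaling by the median gene adds that size to every log2 ratio of the class.

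Single cells of a class differed far more in these genes than the libraries did. In neutrophils the median cell had a summed level of 15809 CPM under high B12 and 16164 CPM under low B12. The 10th to 90th percentile of cells ran from 4128 to 30820.1 CPM under high B12 and from 4189.6 to 30962 CPM under low B12. The level moved with depth when each class was divided into 4 equal parts by UMIs per cell. The shallowest neutrophils, with medians of 2331 UMIs under high B12 and 2063 UMIs under low B12, held 22978 CPM under high B12 and 22545 CPM under low B12. The deepest, with 13160 UMIs under high B12 and 13246 UMIs under low B12, held 5771 CPM under high B12 and 5793 CPM under low B12, so within either part the libraries lay close together. In B cells the ends differed little, with 7971 CPM under high B12 and 6763 CPM under low B12 in the shallowest and 7439.7 CPM under high B12 and 6979.9 CPM under low B12 in the deepest cells. In monocytes the libraries were farthest apart in the shallowest cells, at 12495 CPM under high B12 and 8847 CPM under low B12, and close in the deepest, at 10963 CPM under high B12 and 11062 CPM under low B12.

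**Figure D4:**
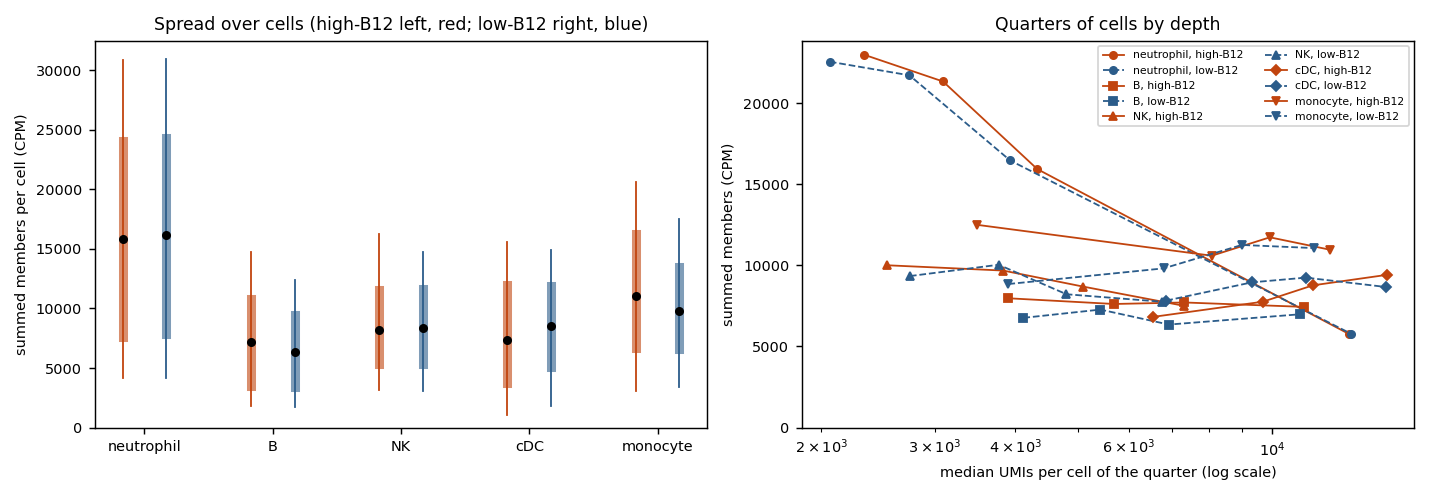
Left, summed CPM of the 10 genes per cell in each class, with the median as a point, the 25th to 75th percentile as a thick bar and the 10th to 90th as a thin line. Right, summed CPM of 4 equal parts of each class by depth against their median UMIs on a log axis, in which the neutrophil level falls with depth in both libraries.

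Most cells carried RNA of several of the 10 genes at once. The median cell held UMIs of 8 of them in neutrophils, 9 in monocytes and cDCs and 7 in B and NK cells, with the same number in both libraries. In cells thinned to 500 UMIs, at least 3 of the 10 were detected in 75.1% of neutrophils under high B12 and 76.2% under low B12. The share was 69.5% under high B12 and 66.5% under low B12 in monocytes and 58.4% under high B12 and 56.9% under low B12 in NK cells. In B cells it was 49.5% under high B12 and 44.7% under low B12, and in cDCs 53.8% under high B12 and 55.9% under low B12. Empty droplets held the 10 genes at 10620 CPM under high B12 and 9118 CPM under low B12 in sum, and the part of free RNA in these shares was not tested.

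Over the cells of 1 class and library, the AP-1 genes varied together, though Jun did so only weakly in neutrophils. Pearson's r of log counts per 10000 UMIs, averaged over the 10 combinations of class and library, was 0.596 (lowest 0.418, highest 0.682) for Fos and Junb. It was 0.536 (lowest 0.388, highest 0.660) for Fos and Fosb and 0.488 (lowest 0.142, highest 0.718) for Fos and Jun. In neutrophils r of Jun with Fos, Fosb, Junb and Jund was 0.221 to 0.295 under high B12 and 0.110 to 0.172 under low B12. Nr4a1 varied least with the others, with mean r between 0.0935 (with Jund) and 0.171 (with Atf3), its 9 pairs being the lowest 9 of 45. These values describe 403 to 2672 cells that share a library and differ in depth, so they are a description.

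The genes whose pattern over single cells was most like the sum of the 10 included early response genes and genes of other kinds. Of 5049 genes detected in at least 5% of cells of every class and library, the highest mean r belonged to Zfp36 (0.618), which encodes the RNA decay factor tristetraprolin, and to Dusp1 (0.592), which encodes a phosphatase of MAP kinases. The ubiquitin gene Ubb (0.428), counted below as a housekeeping gene, was also among the leading 10. So were the early genes Ier5 (0.493), Btg2 (0.482) and Klf6 (0.389) and the histone gene H3f3b (0.410). Srgn (0.386), which encodes a granule proteoglycan, and the chaperone gene Dnajb1 (0.354) were among them too, and the median over all compared genes was -0.00757. Dnajb1 differed by class, with r of 0.0966 under high B12 and 0.0597 under low B12 in neutrophils and 0.528 under high B12 and 0.481 under low B12 in B cells. Srgn did too, with r of 0.755 under high B12 and 0.760 under low B12 in neutrophils. In NK cells r of Srgn was 0.189 under high B12 and 0.140 under low B12.

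**Figure D5:**
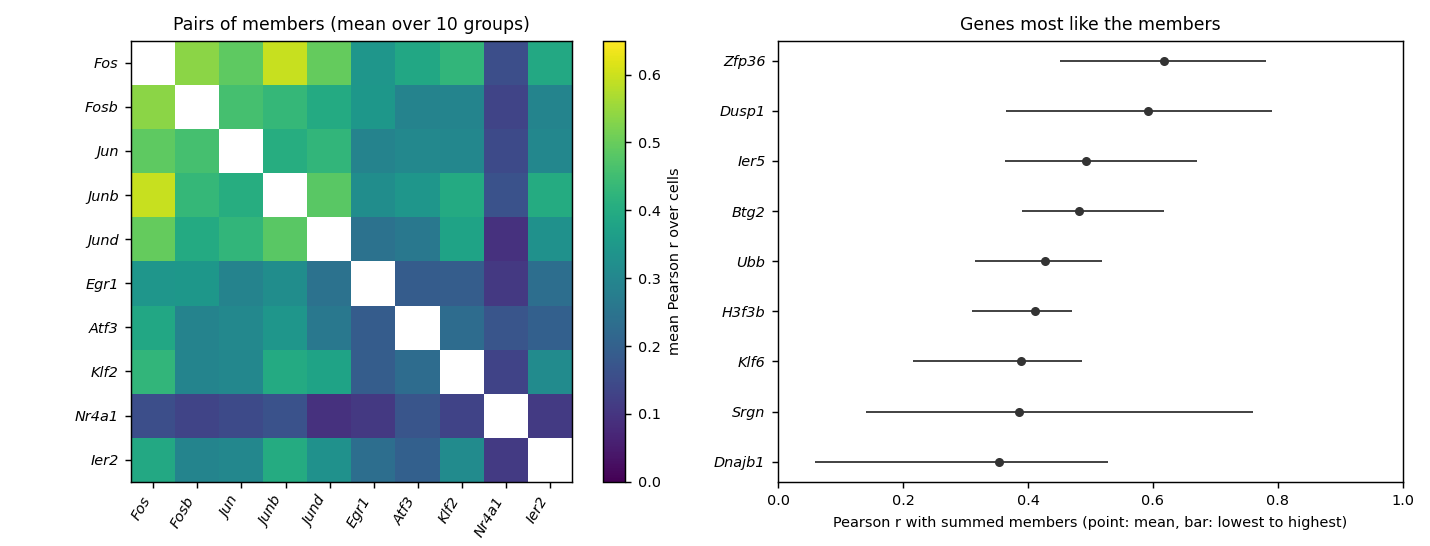
Left, mean Pearson r over cells for each pair of the 10 genes, averaged over 5 classes in both libraries, on a colour scale. Right, 9 of the 10 other genes with the highest mean r to the summed members, with bars from the lowest to the highest of the 10 groups, led by Zfp36 and Dusp1.

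Genes of the pathway outside the 10 are set beside all measured genes, of which 76.9% were lower under high B12 in neutrophils, 64.7% in B cells, 62.5% in NK cells, 60.5% in cDCs and 59.4% in monocytes. Of 22 other immediate early factors, those lower were 12 of 20 measured genes in neutrophils, 14 of 21 in B cells, 13 of 21 in NK cells, 16 of 20 in cDCs and 13 of 19 in monocytes. Their median log2 ratios in that order were -0.13, -0.11, -0.068, -0.33 and -0.21. Past 1.5-fold, 3, 3, 0, 3 and 2 of them were lower and 1, 2, 0, 1 and 0 higher. Btg2, an antiproliferative early gene, was higher in all 5 classes, with 1210.5 CPM under high B12 and 993 CPM under low B12 in neutrophils (ratio 1.22, 1.18 to 1.254). Cebpb, a myeloid bZIP factor gene, was lower in monocytes, at 1056 CPM under high B12 and 1231 CPM under low B12 (ratio 0.857, 0.833 to 0.882), as was Klf4, a monocyte factor gene, at 606 CPM under high B12 and 702 CPM under low B12 (ratio 0.864, 0.832 to 0.897). The NR4A relatives, named after their values were seen, were lower beside Nr4a1 in monocytes. There Nr4a2 stood at 35.4 CPM under high B12 and 45.6 CPM under low B12 (ratio 0.777, 0.665 to 0.906), and Nr4a3 at 4.60 CPM under high B12 and 9.72 CPM under low B12 (ratio 0.478, 0.311 to 0.705).

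Feedback genes were counted in the same way, from a list of 16 that holds genes of phosphatases and RNA decay factors. It also holds genes that encode neither, among them Nfkbia and Nfkbiz. Lower were 10 of 15 measured genes in neutrophils, 13 of 16 in B cells, 11 of 15 in NK cells, 11 of 15 in cDCs and 13 of 15 in monocytes, with medians of -0.22 to -0.094 on the log2 scale. Against the median of all genes, the list's median lay 0.019 higher in neutrophils and 0.012 higher in NK cells. It lay lower in the other classes, with a difference of -0.088 in B cells, -0.14 in cDCs and -0.14 in monocytes. Dusp1 stood at 1713 CPM under high B12 and 1941 CPM under low B12 in neutrophils (ratio 0.883, 0.864 to 0.902), and Zfp36 at 2166 CPM under high B12 and 2209.7 CPM under low B12 (ratio 0.980, 0.961 to 1.000). Dusp2, which encodes a nuclear MAP kinase phosphatase, was lower in B cells, at 323 CPM under high B12 and 515 CPM under low B12 (ratio 0.627, 0.593 to 0.662), and its ratio was 0.378 in neutrophils, 0.548 in cDCs, 0.550 in monocytes and 0.959 in NK cells. Upstream kinases and factors were lower for 17 of 18 in neutrophils, 16 of 18 in B cells, 14 of 17 in NK cells, 15 of 17 in cDCs and 13 of 18 in monocytes, with medians of -0.31 to -0.15. Mapk14, the p38 kinase gene, was among them in monocytes, at 161 CPM under high B12 and 208 CPM under low B12 (ratio 0.775, 0.721 to 0.832). AP-1 and ATF partners had medians of -0.33 to -0.077 and were lower for 14 of 15 in neutrophils, 16 of 16 in B cells, 12 of 16 in NK cells, 12 of 15 in cDCs and 14 of 18 in monocytes. In B cells they included Bach2, a B cell repressor gene, at 625 CPM under high B12 and 747 CPM under low B12 (ratio 0.837, 0.804 to 0.872).

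The 6 KLF2 partners and trafficking targets had median log2 ratios of -0.32 to -0.072, and the 8 housekeeping genes 0.052 to 0.12. Heat shock chaperones were lower for 10 of 10 genes in neutrophils, against 76.9% of all measured genes. There Hspa1a stood at 107 CPM under high B12 and 289 CPM under low B12 (ratio 0.371, 0.347 to 0.396). Hspa1b stood at 104 CPM under high B12 and 343 CPM under low B12 (ratio 0.302, 0.283 to 0.322). The 8 B cell markers, none of them at 0, summed in neutrophils to 182 CPM under high B12 and 498 CPM under low B12, and the 8 monocyte markers, none of them at 0, to 588 CPM under high B12 and 793 CPM under low B12. B cells held 764 CPM under high B12 and 819 CPM under low B12 of Hspa1a and monocytes 1549 CPM under high B12 and 1669.5 CPM under low B12, and the part of such RNA in the neutrophil values was not tested. Chaperones were lower for 7 of 10 in B cells, 7 of 10 in NK cells, 6 of 10 in cDCs and 5 of 10 in monocytes. The shares of all measured genes in that order were 64.7%, 62.5%, 60.5% and 59.4%. Hspa1a and Hspa1b are near-identical and can share reads, so their split is uncertain. Tsc22d3, a glucocorticoid-induced gene, was lower in monocytes, at 139 CPM under high B12 and 259 CPM under low B12 (ratio 0.539, 0.501 to 0.579). Its ratio was 0.568 in cDCs, 0.655 in neutrophils, 0.684 in NK cells and 1.03 in B cells.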

How the data were processed

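The authors deposited a raw matrix of UMI counts for each library, with barcodes of empty droplets in it, made with Cell Ranger 4 per the file headers. Cell Ranger 2.1.1 is what the submitters' processing notes name. The chemistry was single cell 3′ v2, per the labels. Neither the genome build nor the annotation used for counting is given in the sources used here.

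A barcode counted as a cell from 500 UMIs and 200 genes on, if no more than 10% of its UMIs came from 13 mitochondrial genes, a limit that removed 7.21% of the barcodes under high B12 and 4.45% under low B12. Median depth was 4327 UMIs under high B12 and 5695 UMIs under low B12 per cell. Doublets were kept, and an alternative left out those called by Scrublet (scanpy 1.11.5), 329 under high B12 and 475 under low B12. Counts were summed per class and scaled to CPM. Ratios have 0.5 UMI added to each sum and an exact conditional binomial interval (scipy 1.17.1). It was tried only on simulated Poisson counts, the model it assumes, with no spread between cells or libraries. The size rule was 1.5-fold among genes with at least 50 UMIs over both libraries. Alternatives changed the UMI and mitochondrial limits, doublets, thinning (to 500 UMIs, leaving out no cell), scaling, cell weights, class overlap, the richest cells and the deepest cells.

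The members and lists were chosen with earlier results of these data known. Beside the 10 members, the rule for named genes takes up to 4 genes of a list with the highest CPM in a class, the 10 genes most like the members, Hspa1a, Hspa1b and Tsc22d3. Some genes that this rule takes are not reported here.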

Additional observations from a re-analysis of the deposited data

Results flagged for a closer look

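Egr1 differed between the libraries in opposite directions in different cell classes. Its CPM ratio, high B12 over low B12, was 1.43 in neutrophils and 1.41 in monocytes, but 0.636 in B cells. Fos, Klf2 and Ier2 also had both directions, by smaller factors. Each class has 1 library per treatment, so this difference between classes was not tested.

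Atf3 likewise had a ratio of 1.68 in B cells and 0.598 in NK cells, a difference that was not tested. The 10 B cells richest in Atf3 held 25.9% of its UMIs under high B12 and 15.3% under low B12 in that class. In thinned B cells the shares with an Atf3 UMI had overlapping intervals, 2.90 to 6.13% under high B12 and 2.20 to 3.79% under low B12.

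Cells that met no class rule, 1314 under high B12 and 1026 under low B12, lay outside the comparisons and had a summed level of the 10 genes of 14528 CPM under high B12 and 9682 CPM under low B12 (ratio 1.501, 1.48 to 1.52), a wider gap than in any of the 5 classes. Their 10 neutrophil markers, none at 0, summed to 3089 CPM under high B12 and 1287 CPM under low B12, and their 5 erythroid markers, none at 0, to 775 CPM under high B12 and 33.5 CPM under low B12. Their 4 basophil and mast cell markers, none at 0, summed to 147 CPM under high B12 and 2.22 CPM under low B12, and their median depth was 2345 UMIs under high B12 and 3296 UMIs under low B12. The part of these in the gap was not tested. Empty droplets, also outside the comparisons, held 10620 CPM under high B12 and 9118 CPM under low B12 of the 10 genes (ratio 1.16, 1.15 to 1.18).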

How the results depend on the processing

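No paired analysis was possible because each treatment has 1 library, and for the same reason none could be left out. Leaving out the deepest 25% of cells in each class and splitting monocytes were chosen after seeing the data. The summed log2 ratio of neutrophils, 0.067, was 0.029 without called doublets, -0.0028 thinned to 500 UMIs, 0.28 scaled by the median gene, -0.017 with cells weighted alike, -0.026 in barcodes of 1 class rule, 0.051 without the 10 cells richest in members, -0.015 without the deepest cells. In B cells, 0.15 was 0.12 with at most 5% mitochondrial UMIs, 0.23 thinned to 500 UMIs, 0.27 scaled by the median gene, 0.18 with cells weighted alike, 0.12 without the 10 cells richest in members, 0.20 without the deepest cells. In NK cells, 0.0051 was 0.098 thinned to 500 UMIs, 0.11 scaled by the median gene, 0.039 with cells weighted alike, 0.033 without the deepest cells. In cDCs, -0.041 was -0.064 without called doublets, 0.035 scaled by the median gene, -0.078 with cells weighted alike, -2.5e-05 in barcodes of 1 class rule, -0.081 without the 10 cells richest in members, -0.14 without the deepest cells. In monocytes, 0.086 was 0.067 with at most 5% mitochondrial UMIs, 0.26 thinned to 500 UMIs, 0.16 scaled by the median gene, 0.20 with cells weighted alike, 0.15 without the deepest cells. With a minimum of 1000 UMIs per cell these 5 values stayed within their counting intervals. Of the 50 single values, the 4 at least 1.5-fold lower became 2 without called doublets, 1 thinned to 500 UMIs and 2 each when scaled by the median gene, with cells weighted alike and in barcodes of 1 class rule. The 1 higher value became 3 when thinned and 2 each when scaled by the median gene, with cells weighted alike and without the deepest cells. Under the 9 settings 288 of 450 single values stayed within their counting interval. Another 146 left it, and the remaining 16 turned sign from one whose interval left out 0. On the log2 scale, Fos in neutrophils was 0.025 scaled by the median gene. Junb in neutrophils was -0.016 thinned to 500 UMIs and -0.027 with cells weighted alike and -0.033 in barcodes of 1 class rule. Jund in neutrophils was -0.0078 with cells weighted alike. Nr4a1 in B cells was 0.23 thinned to 500 UMIs and 0.0080 in barcodes of 1 class rule and 0.11 without the deepest cells. Fos in NK cells was 0.0065 thinned to 500 UMIs and 0.0070 scaled by the median gene. Junb in cDCs was -0.069 without the deepest cells. Jund in cDCs was -0.093 thinned to 500 UMIs. Fosb in monocytes was 0.0076 thinned to 500 UMIs and 0.0043 scaled by the median gene and 0.084 with cells weighted alike and 0.0041 without the deepest cells. Scaling shifts all genes of a class alike, and the other causes were not tested. In neutrophils 27.9% of all genes were at least 1.5-fold lower with no count filter. Depth limits Nr4a1, Atf3 and Egr1 in B and NK cells, where they had 299 to 3299 UMIs per library.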
